A study of Homo sapiens with 6 samples.

Results

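The genes ARRDC3, AHNAK, ZFHX4, ASPH and ANKRD33B were taken from a map of Argonaute crosslinks in HK2 cells, which are an established cell line from the proximal tubule of a human kidney. Every site whose gene name was one of these was used, which gave 36 of the 16230 sites in the table and 5 of its 4361 named genes. AHNAK held 19 sites, ARRDC3 7, ZFHX4 6, ANKRD33B 3 and ASPH 1. No site carried a name that joins one of them with another gene. The genes were picked because they had fewer Argonaute crosslinks after TGF-beta1, so their differences between treated and control cells are described here and not tested.

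The map came from PAR-CLIP, in which cells take up 4-thiouridine, ultraviolet light fixes it to bound protein, and the fixed base is read as a base change. The treated group was wild-type HK2 cells that received 20 ng/mL TGF-beta1 over 24 h, and the control group was wild-type HK2 cells labelled control, with 2 anti-Argonaute libraries in each. Per the protocol, which the labels repeat for all samples, cells went 24 h without serum beforehand, took up 100 µM 4-thiouridine in the last 20 h and were irradiated at 365 nm, and lysates were cut with micrococcal nuclease before the pull-down. The 2 IgG pull-downs from control cells that the labels list were not analysed here, which leaves the Argonaute values without a measured background. Depth was 5293207 and 3415699 reads in the treated libraries and 1714444 and 1926255 in the control libraries. Values below are RPM, crosslinked reads scaled to library size per the file header, divided further by a TMM factor that sets the typical gene equal between libraries (0.666 to 1.38 here), and are called scaled RPM. None of 15 proximal tubule markers and none of 14 markers of fibroblasts, smooth muscle, endothelium and leukocytes had a site, which says only that Argonaute was not found on them here. Of 8 epithelial markers, KRT18, CLDN1 and JUP had sites. Their summed level was 15.6 and 17.1 scaled RPM in treated libraries, against 30.4 and 27.7 in control libraries, and its part in the results below was not tested.

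Argonaute proteins carry a microRNA whose bases 2 to 8, the seed, pair with matching stretches of messenger RNA, most often in the 3' UTR. Such pairing lowers the stability and translation of the messenger, and in PAR-CLIP the crosslinked uridine commonly lies just upstream of the stretch that pairs. TGF-beta1 drives proximal tubule cells away from their epithelial state and towards matrix production. ARRDC3 is an alpha-arrestin that brings membrane receptors to ubiquitin ligases of the NEDD4 family. AHNAK is a giant scaffold protein at the membrane and cytoskeleton, ZFHX4 a very large transcription regulator with zinc fingers and homeodomains, and ASPH a hydroxylase of EGF-like domains in the endoplasmic reticulum whose locus also encodes shorter proteins, among them junctin. ANKRD33B carries ankyrin repeats.

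The microRNAs that the authors assigned to the main sites are shown first, with the seed in capitals (RefSeq, GRCh38.p14), since the sites below are read against them.
let-7a-5p: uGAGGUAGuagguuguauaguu
miR-30a-5p: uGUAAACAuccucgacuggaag
miR-17-5p: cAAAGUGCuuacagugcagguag
miR-103a-3p: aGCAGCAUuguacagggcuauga
miR-21-5p: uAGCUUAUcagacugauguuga
miR-29a-3p: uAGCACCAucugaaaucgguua
miR-23b-3p: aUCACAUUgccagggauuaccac
The authors give a microRNA abundance score with each seed, made from microRNA reads in HK2 cells for the microRNAs that share it. It was 376262 for miR-21, 97405 for let-7, 50330 for the miR-30 5p arms, 3425 for the family of miR-17, miR-20a, miR-93 and miR-106b, 1784 for miR-29a, 1372 for miR-103a and 884 for miR-23.

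Some crosslinked sites of ARRDC3, AHNAK and ANKRD33B follow, from the deposited table: the leading 3' UTR site of each gene, the ARRDC3 sites assigned to miR-29a, the other ANKRD33B sites, and AHNAK coding sites described below. Each run is 28 bases of the transcribed strand, hg38, 5′ to 3′, with the crosslinked base as base 13 and the seed match in capitals.
ARRDC3 3' UTR, miR-29a, chr5:91368832-91368859, minus: ttccttttttattTGGTGCTgaatatgt
ARRDC3 3' UTR, no match listed, chr5:91368813-91368840, minus: tgaatatgtccttgtaggctctgtttta
ARRDC3 coding, miR-29a, chr5:91383076-91383103, minus: ttgttataaacaTGGTGCTgggaaaggt
AHNAK 3' UTR, miR-30, chr11:62516441-62516468, minus: gctgagagctccTGTTTACtaagcaagc
AHNAK coding, miR-17 family, chr11:62527266-62527293, minus: agatgccagatatGCACTTTaaagctcc
AHNAK coding, miR-23, chr11:62529563-62529590, minus: gggtcctgaaattgATGTGAaagcccct
ANKRD33B 3' UTR, miR-17 family, chr5:10651591-10651618, plus: gtctgtcacatatGCACTTTatttcagt
ANKRD33B 3' UTR, miR-103a, chr5:10654507-10654534, plus: agacaatgtcgATGCTGCtgatgacaac
ANKRD33B 3' UTR, miR-21, chr5:10657387-10657414, plus: aggtcctcttagtATAAGCTctcttttt

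Both miR-17 family sites share the 12-base run atatGCACTTTa, one in AHNAK coding sequence and one in the ANKRD33B 3' UTR. The authors also list another seed near some of these crosslinks. It was that of miR-148 and miR-152 at both miR-17 family sites, and of miR-28 and miR-708 at the AHNAK miR-30 site. At the AHNAK miR-23 site it was that of miR-30a-3p and miR-30e-3p, with a score of 7344, against 884 for miR-23. The capitals on the miR-29a sites follow the RefSeq mature sequence. The authors list that seed as the letters TAGCACC, which are bases 1 to 7 of the RefSeq sequence, and therefore record both ARRDC3 sites as 6-base matches. Both windows hold TGGTGCT, the match to RefSeq bases 2 to 8. In all, 394 sites are assigned to miR-29a, 301 of them as 6-base matches, and 187 of those 301 hold TGGTGCT. Of the 42 seeds in the table, 39 could be set against a RefSeq mature sequence by their first-named microRNA, and 2 differed.

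Of the 36 sites, 17 lay in 3' UTRs (47.2%, against 39.0% of all sites), 19 in coding sequence (52.8%, against 26.2%) and 0 in introns, which hold 22.1% of all sites. AHNAK supplied 15 of the coding sites. The authors list a 7-base match at 11 of the 36 (30.6%, against 18.8% of all sites), a 6-base match at 17 (47.2%, against 43.0%) and no match at 8 (22.2%, against 36.9%). These sites also held more reads, with a median of 15.5 over the 4 libraries, against 7 at all sites, and matches are more often listed at sites with more reads. Among sites with 20 or more reads, 7 of 14 had a 7-base match, against 37.9% of the 2498 such sites in the table. By place, 11 of these 14 lay in 3' UTRs (78.6%, against 66.3%) and 3 in coding sequence (21.4%, against 16.7%). Introns held 0 of them, and only 3.60% of the 2498. The largest groups by reads were the miR-30 5p sites of AHNAK, with 166 reads at 2 sites, and the let-7 sites of ZFHX4, with 152 reads at 3 sites. Sites with no listed match held 327 reads, most of them in ARRDC3 and ASPH.

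All 5 genes had fewer crosslinks in both treated libraries than in either control library. By limma on log2(scaled RPM + 1) over all genes, 39 of 1266 tested genes passed at an adjusted p under 0.05 (3.08%), and 19 of them were lower (1.50%) and 20 higher. Without the TMM factor 23 were lower and 6 higher, on a median of all genes of -0.45. All 5 genes are among those 19, which follows from how they were chosen. ANKRD33B had enough reads to be tested in the control libraries alone (41 and 40 reads, against 17 and 9 in treated libraries). The treated values lay below both control values in 292 tested genes (23.1%). The median log2 difference was -1.64 over the 5 genes and 0.02 over all tested genes. Within the treated group the libraries differed by less than 2 scaled RPM for ZFHX4 and ASPH, while ANKRD33B differed most in relative terms in both groups. RNA levels were not analysed here, and from crosslinks of whole cultures alone, fewer crosslinks per transcript, less RNA of the gene and fewer cells that carry it cannot be told apart.

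**Figure D1:**
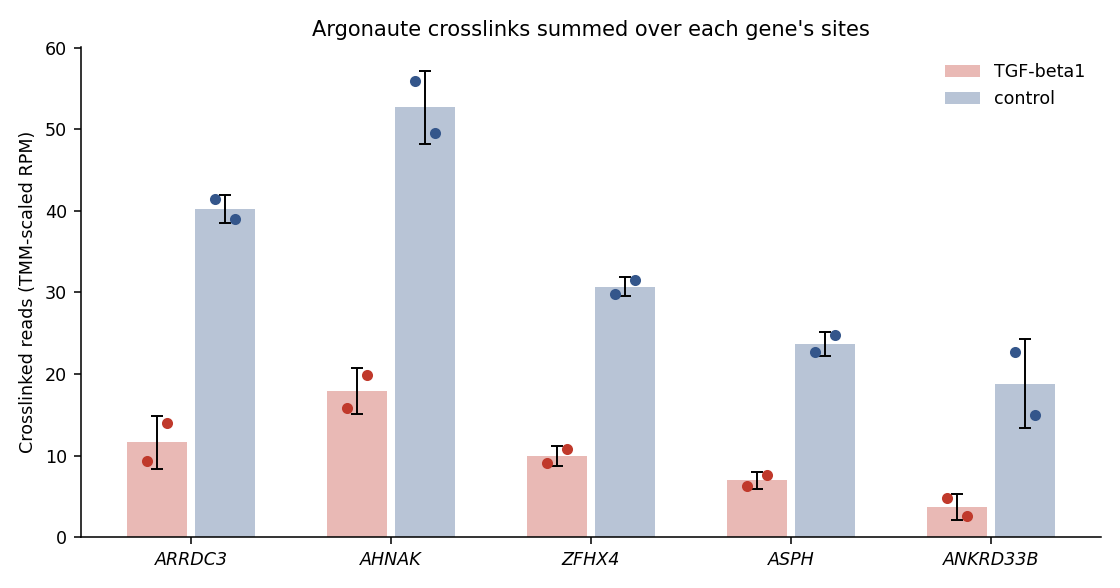
Crosslinked reads in TMM-scaled RPM, summed over the sites of each gene, in TGF-beta1 (red, left) and control (blue, right) libraries; points are the 2 libraries of a group, bars their mean and error bars 1 SD. Every treated point lies below every control point of the same gene, with AHNAK averaging 17.9 in treated and 52.7 in control cells.

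The share of covering reads that carried a crosslink, over all sites of the table, was 18.0% and 21.2% in treated libraries and 25.8% and 28.3% in control libraries. ARRDC3 followed this, with 28% and 26.2% in treated libraries, against 33.9% and 34.1% in control libraries. ASPH did too, with 61.1% and 65.9% against 78.8% and 75.0%. AHNAK did not, at 14.4% and 15.3% in treated and 16.1% and 13.9% in control libraries, and neither did ZFHX4, at 50% and 36.9% against 38.0% and 38.7%. ANKRD33B stood at 53.1% and 39.1% in treated and 55.4% and 48.8% in control libraries, so its groups overlapped. Counted as covering reads in place of crosslinked reads, the log2 differences were -1.79 for ARRDC3, -1.87 for AHNAK, -2.07 for ZFHX4, -1.73 for ASPH and -2.37 for ANKRD33B. The coverage column is 0 wherever a library has no crosslinked read, so it is not a full count of covering reads. Reads that span close sites are counted at each, so sums over a gene count some covering reads more than once. Over the sites crosslinked in every library alone, the log2 differences were -1.52 for ARRDC3, -1.65 for AHNAK, -1.81 for ZFHX4, -1.50 for ASPH and -2.15 for ANKRD33B. By covering reads the 5 genes were thus lower in treated cells in both measures, but ARRDC3 and ASPH were lower by less in the second than by crosslinked reads.

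**Figure D2:**
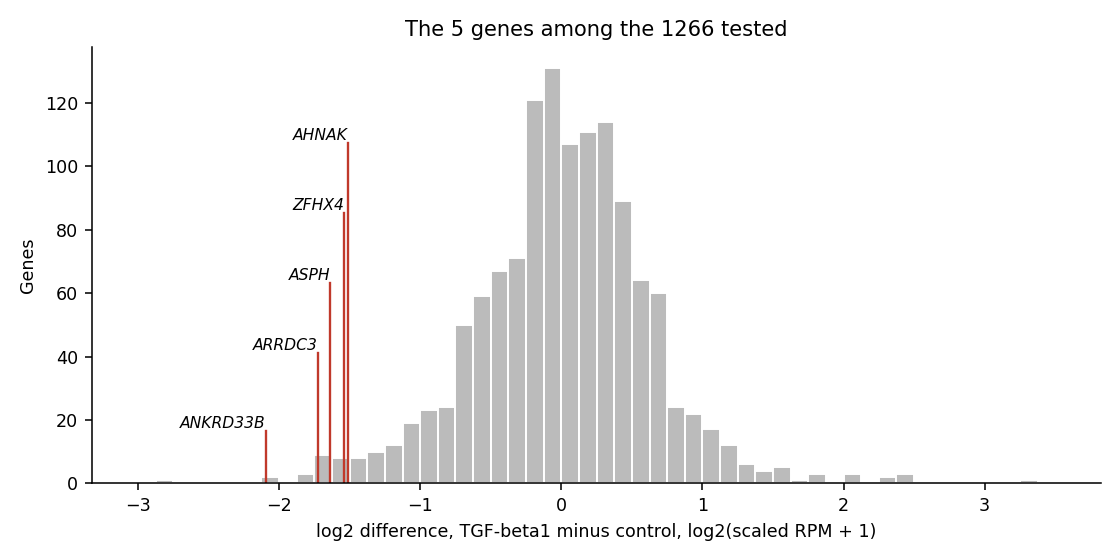
Histogram of log2 differences, TGF-beta1 minus control, for the 1266 tested genes, with the 5 genes marked by red lines whose heights only separate the labels. The lines lie between -2.10 (ANKRD33B) and -1.51 (AHNAK), in the left tail they were chosen from.

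ARRDC3 had 33 and 49 crosslinked reads in the treated libraries, or 9.36 and 13.9 scaled RPM, against 75 and 104 reads, or 41.5 and 39.0 scaled RPM, in the control libraries. It was 3.45-fold lower in treated cells (log2 difference -1.73 ± 0.27 SE). A pair of 3' UTR sites 19 nt apart, the more distal one 197 nt from the gene's 3' end in RefSeq, held most of these reads. Reads of this length can span both positions, so the pair is not 2 independent sites.

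The leading site of that pair, at position 91368828, has no listed seed match. It had 3.69 and 6.26 scaled RPM in treated libraries, against 20.5 and 22.5 in control libraries. It was 4.32-fold lower. Its groups did not overlap, as at 24.5% of all tested sites, in a gene chosen for being lower. The miR-29a match lies upstream of this leading site, ending 12 nt before its crosslinked base. The neighbouring site at 91368847, where that match begins 1 nt after the crosslinked base, had 1.99 and 3.13 scaled RPM in treated and 13.3 and 7.5 in control libraries, or 4.06-fold lower, on 62 reads in all.

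Upstream in the same 3' UTR, 3 sites within 49 nt at 91370519 to 91370567 were assigned to miR-128, miR-182 and miR-125. They summed to 2.84 and 2.56 scaled RPM in treated and 5.53 and 6.75 in control libraries, 2.27-fold lower. The coding sites at 91383055, with a miR-21 match, and 91383091, with the miR-29a match, had 6 and 14 reads in all. Together these coding sites stood at 0.851 and 1.99 scaled RPM in treated and 2.21 and 2.25 in control libraries. The distal pair thus held 60.6% (95% Wilson interval 43.7 to 75.3) and 67.3% (53.4 to 78.8) of ARRDC3 reads in treated libraries, against 81.3% (71.1 to 88.5) and 76.9% (68.0 to 84.0) in control libraries. The groups did not overlap in this share, but the intervals did. How often such shares separate the groups in other genes was not worked out, here or for the shares below. Intervals cover counting error only. They treat reads as independent molecules, which reads without molecular identifiers need not be, so they may be too narrow even for that. An exact two-sided permutation p of 2 libraries against 2 cannot fall below 0.333.

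AHNAK had 56 and 70 crosslinked reads in treated libraries, or 15.9 and 19.9 scaled RPM, against 101 and 132 reads, or 55.9 and 49.5 scaled RPM, in control libraries. It was 2.94-fold lower in treated cells (log2 difference -1.51 ± 0.24 SE), the smallest log2 difference of the 5 genes. Its crosslinks fall into a tight 3' UTR cluster and a string of weak coding sites. The cluster of 3 sites spans 45 nt around the miR-30 match shown above, so one read can cover more than 1 of them.

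The central site, at 62516456, has its crosslinked T as the first base of the 7-base miR-30 match. It had 5.96 and 5.98 scaled RPM in treated and 16.6 and 15.4 in control libraries, 2.68-fold lower. The site at 62516429, downstream in the transcript, had 1.70 and 1.71 scaled RPM in treated and 9.95 and 8.62 in control libraries, 5.45-fold lower; its 6-base miR-30 match lies upstream of the crosslink. The site at 62516473, assigned to miR-28 and miR-708 by a match that begins 11 nt downstream, had 1.99 and 4.55 scaled RPM in treated and 12.2 and 13.1 in control libraries, 3.87-fold lower. Groups did not overlap at any of the 3, as at 24.5% of all tested sites, in a gene chosen for being lower.

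The coding sites were lower by less. They summed to 5.96 and 6.83 scaled RPM in treated and 16.0 and 10.9 in control libraries, 2.1-fold lower, while the 3' UTR sites were 3.41-fold lower. The strongest coding site, at 62529578 with a 6-base miR-23 match, had 1.99 and 2.28 scaled RPM in treated and 3.87 and 3.0 in control libraries. At 1.61-fold lower it had the smallest fold of the 14 sites with 20 or more reads. The coding site at 62527281, with the 7-base miR-17 family match, had 1 and 3 reads in treated and 8 and 6 in control libraries. The other 13 coding sites held 2 to 8 reads each, and 4 of them had a mean no lower in treated cells.

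As a result the 3' UTR took 62.5% (49.4 to 74.0) and 65.7% (54.0 to 75.8) of AHNAK reads in treated libraries, against 71.3% (61.8 to 79.2) and 78.0% (70.2 to 84.2) in control libraries. Groups did not overlap, but intervals did. In covering reads the same share was 79.0% ± 5.85 in treated and 84.9% ± 0.174 in control cells (SD, n = 2). The cluster sites at 62516456 and 62516473 had 131 and 126 covering reads in TGF-beta1 replicate 1. Reads that span both are counted at each, which raises this share. The coding region of AHNAK is built of many similar repeats, and how reads that map to several places were handled is not given in the sources used here, so the coding sites are less certain than the 3' UTR cluster.

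**Figure D3:**
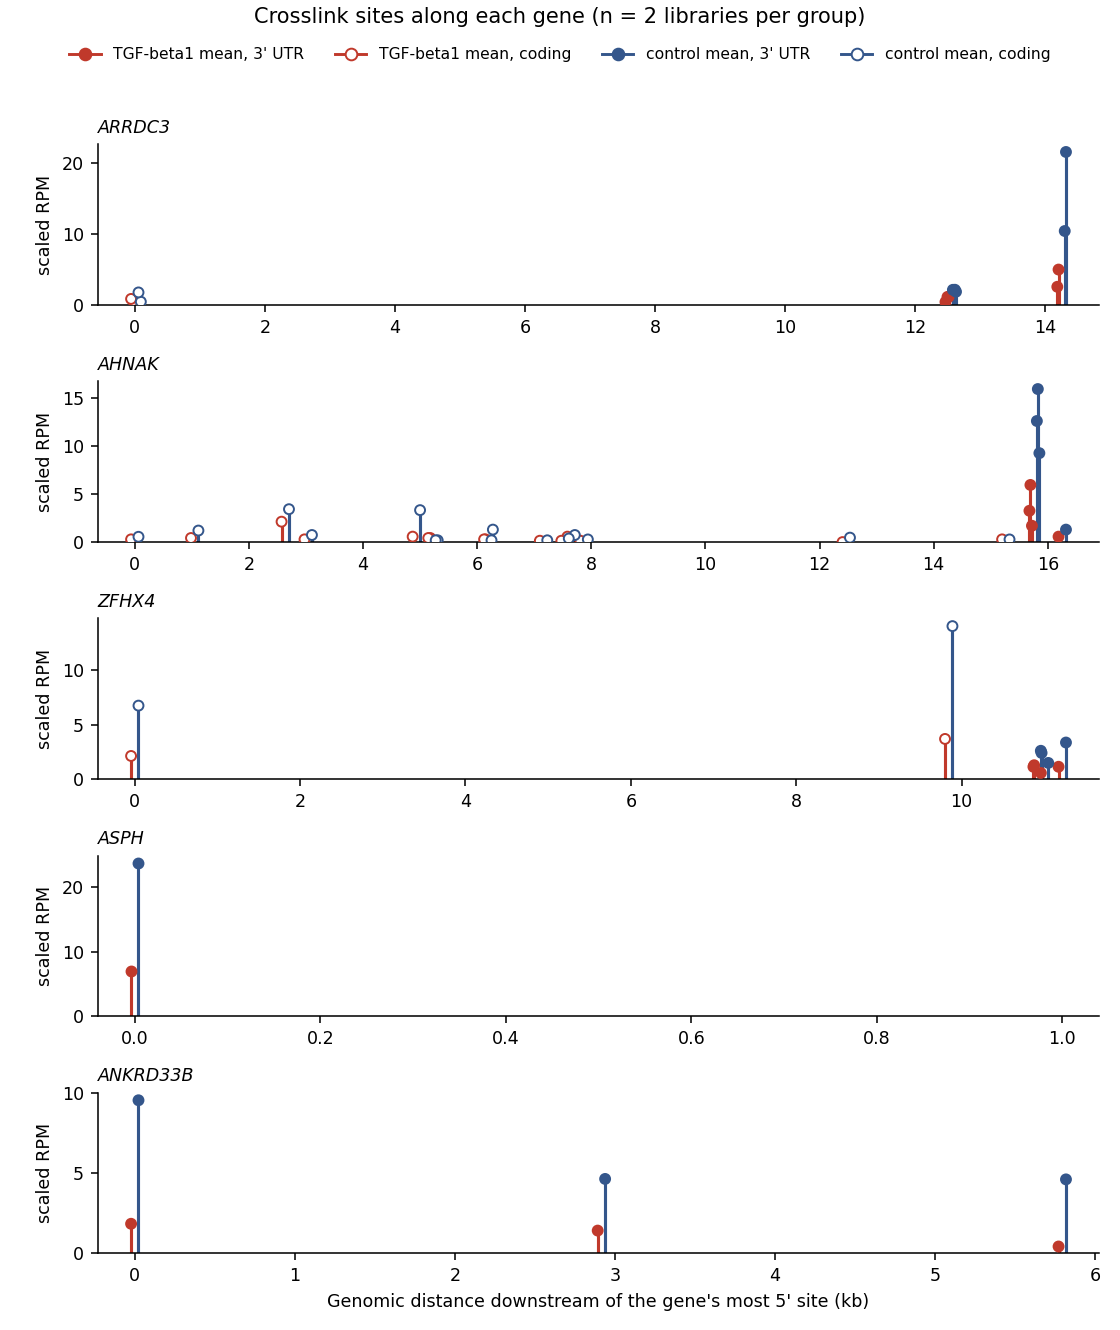
Mean TMM-scaled RPM of each site in TGF-beta1 (red) and control (blue) libraries, against genomic distance in kb downstream of the gene's most 5' site; filled points are 3' UTR sites, open points coding sites, and the 2 groups are drawn slightly apart. The ARRDC3 and AHNAK crosslinks concentrate in short stretches of the 3' UTR, while the 2 tallest ZFHX4 sites are coding.

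ZFHX4 had 32 and 38 crosslinked reads in treated libraries, or 9.08 and 10.8 scaled RPM, against 54 and 84 reads, or 29.9 and 31.5 scaled RPM, in control libraries. It was 3.08-fold lower in treated cells (log2 difference -1.54 ± 0.27 SE). Of the 5 genes it alone had its 2 strongest sites in coding sequence. Both lie 1 nt upstream of a 7-base let-7 match, 9845 nt apart on chromosome 8, plus strand. The authors also list miR-196a and miR-196b at the same start in both, and miR-151a near the more proximal one.

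The more distal of these coding sites, at 76864221, had 3.40 and 3.99 scaled RPM in treated and 11.6 and 16.5 in control libraries, 3.8-fold lower. The more proximal one, at 76854376, had 2.55 and 1.71 in treated and 10.5 and 3.0 in control libraries, 3.17-fold lower on average. Its control libraries differed from each other by more than the lower control library differed from either treated library. With the scaling factors of the fit over sites, its values were 2.77 and 1.71 in treated and 10.5 and 2.75 in control libraries, so the groups overlapped.

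The 3' UTR of ZFHX4 held 4 sites close together. Of these, the sites at 76865290 and 76865299 lie 9 nt apart and were assigned to miR-183 and, by a 6-base match, let-7. The authors also list miR-182 at both, and miR-196a and miR-196b at the let-7 one. The first had 1.42 and 0.854 scaled RPM in treated and 2.21 and 3.0 in control libraries, on 20 reads in all. The second had 0.851 and 1.71 in treated and 3.32 and 1.5 in control libraries, so its groups overlapped. The site at 76865594, with no listed match, had 0 and 8 reads in treated and 2 and 15 in control libraries, and differed more between replicates than between groups.

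Together the 3' UTR sites were 2.39-fold lower and the coding sites 3.57-fold lower. The log2 difference of ZFHX4 from 3' UTR sites alone was -0.97, against -1.54 from all sites. That fit has its own filter and scaling. ASPH and ANKRD33B, whose reads are the same in both fits, moved from -1.64 to -1.52 and from -2.10 to -1.98. The 3 let-7 sites held 75.0% (57.9 to 86.7) and 68.4% (52.5 to 80.9) of ZFHX4 reads in treated libraries, against 85.2% (73.4 to 92.3) and 66.7% (56.1 to 75.8) in control libraries, with overlapping groups. In covering reads the coding share was lower, at 38.1% ± 5.80 in treated and 38.4% ± 0.482 in control cells (SD, n = 2). These reads were summed over sites. The 3' UTR sites at 76865290 and 76865299 had 14 and 15 covering reads in TGF-beta1 replicate 1, and 45 each in control replicate 2. Reads that span both are counted at each, which lowers the coding share. At the more proximal coding site 100% and 85.7% of covering reads carried a crosslink in treated libraries, against 79.2% and 66.7% in control libraries.

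ASPH rested on 1 site, in a 3' UTR at position 61625881 of chromosome 8, minus strand, with 156 reads over the 4 libraries and no listed seed match. It had 22 and 27 reads in treated libraries, or 6.24 and 7.69 scaled RPM, against 41 and 66 reads, or 22.7 and 24.7 scaled RPM, in control libraries. It was 3.40-fold lower in treated cells (log2 difference -1.64 ± 0.29 SE). Replicates lay close together in both groups. The site lies 125325 nt upstream of the gene's 3' end in RefSeq and is assigned to 6 transcripts, so it is in a 3' UTR of transcripts that end well before the longest one. Which ASPH proteins these transcripts encode was not analysed here.

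ANKRD33B had the largest fold of the 5 genes and the fewest reads. It had 17 and 9 reads in treated libraries, or 4.82 and 2.56 scaled RPM, against 41 and 40 reads, or 22.7 and 15 scaled RPM, in control libraries. It was 5.10-fold lower in treated cells (log2 difference -2.10 ± 0.38 SE). All 3 sites were in the 3' UTR, spread over 5796 nt, and all 3 had a 7-base match, each to another family.

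The miR-17 family site, at 10651603, had 2.55 and 1.14 scaled RPM in treated and 10.5 and 8.62 in control libraries, 5.18-fold lower. The miR-103a site, at 10654519, had 1.70 and 1.14 in treated and 4.42 and 4.87 in control libraries, 3.27-fold lower. The miR-21 site, at 10657399, had 2 and 1 reads in treated and 14 and 4 in control libraries. Control replicate 1 thus held 14 of its 21 reads, and its ratio is not well measured on so few. The miR-17 family site took 52.9% (31 to 73.8) and 44.4% (18.9 to 73.3) of ANKRD33B reads in treated libraries, against 46.3% (32.1 to 61.3) and 57.5% (42.2 to 71.5) in control libraries. The groups overlap in this share. The miR-103a site took 35.3% (17.3 to 58.7) and 44.4% (18.9 to 73.3) in treated libraries, against 19.5% (10.2 to 34.0) and 32.5% (20.1 to 48.0) in control libraries. Here the groups did not overlap, but the intervals did, and the treated shares of this site rest on 6 and 4 reads.

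**Figure D4:**
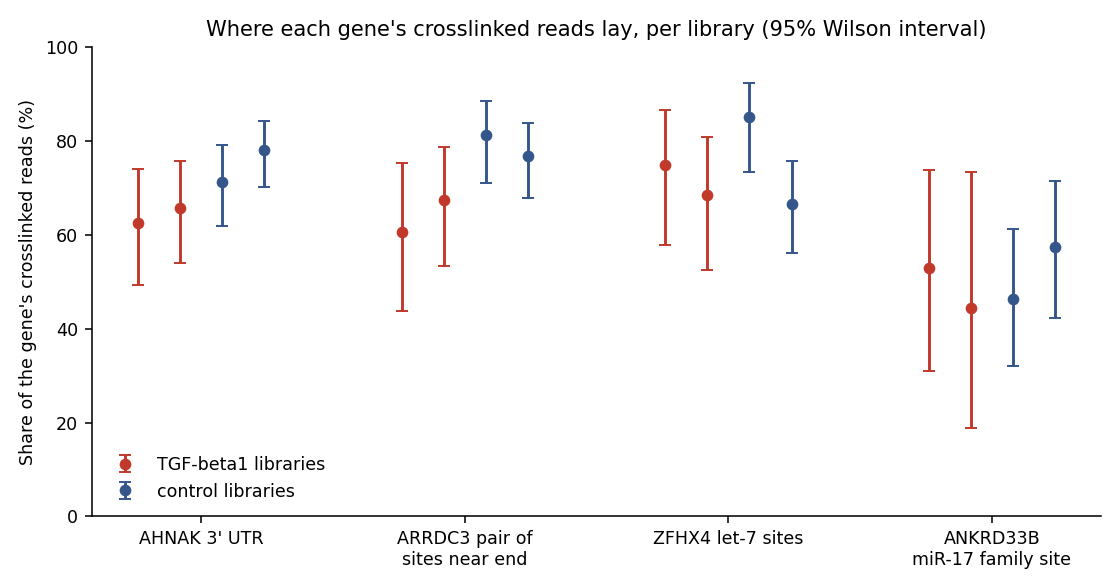
Share in percent of a gene's crosslinked reads that fell in the named part, for each TGF-beta1 (red, left) and control (blue, right) library. Bars are 95% Wilson intervals for counting error, with reads taken as independent. The AHNAK and ARRDC3 points are lower in both treated libraries with overlapping intervals, and the ZFHX4 and ANKRD33B points overlap between groups.

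Across the 36 sites, 31 had a lower mean in treated than in control cells. The other 5 were 4 coding sites of AHNAK and 1 of ARRDC3, with 3 to 6 reads each. Of the 14 sites with 20 or more reads, 13 had both treated values below both control values with the scaling over genes, and the exception was the ZFHX4 site at 76865594. With the scaling over sites the ZFHX4 site at 76854376 overlapped too. Of the 11 member sites tested with that scaling, 10 had both treated values below both control values. Over all tested sites 259 of 1059 did (24.5%), and the genes were chosen for being lower. The share among all sites with 20 or more reads was not worked out. Only 11 of the 36 sites had enough reads for the fit over sites, in which 36 of 1059 were called lower (3.40%) and 75 in either direction (7.08%). The filter asked for enough reads in only 2 libraries, so a site could enter through the control libraries alone. The AHNAK sites at 62516429 and 62529578, the ARRDC3 site at 91368847 and the ZFHX4 site at 76854376 entered in this way. So did the miR-17 family and miR-103a sites of ANKRD33B. Of the 11 member sites, 8 were called lower, which follows from the choice of the genes and in part from that filter. Their log2 differences ran from -1.84 at the leading ARRDC3 site to -0.41 at the miR-23 coding site of AHNAK, with a median of -1.55, against 0.05 over all tested sites.

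The genes whose 4-library profile came closest to the mean profile of the 5 were PARD6B, PSME3, DCDC2, UGCG and PTPN3. The measure was the distance between log2 values less each gene's mean. It was 0.10 for PARD6B, an apical polarity protein, 0.23 for PSME3, 0.27 for DCDC2, 0.31 for UGCG and 0.31 for PTPN3, while ANKRD33B itself lay at 0.77. PARD6B had 21 and 21.6 scaled RPM in treated and 71.3 and 70.5 in control libraries. UGCG, which makes glucosylceramide, had 51.4 and 51.8 in treated and 173 and 205 in control libraries. PTPN3, a tyrosine phosphatase, had 3.69 and 3.99 against 11.6 and 13.1. PSME3, a proteasome activator, had 0.567 and 0.569 in treated and 3.87 and 4.50 in control libraries, and DCDC2, a doublecortin family protein, had 1.13 and 1.42 against 5.53 and 6.75, so both rest on few reads.

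Relatives of the 5 genes were counted from a list of 59, of which 25 had a site and 11 were tested. None of the 11 passed in limma (0 called), where ZFHX3 was higher and ANKRD46 lower before adjustment at p under 0.05. By edgeR 0 passed as well, with 2 unadjusted, and by DESeq2 0, with 1 unadjusted. The median log2 difference of the 11 was -0.03. TXNIP, the alpha-arrestin that binds thioredoxin, had 57.0 and 73.2 scaled RPM in treated and 60.8 and 71.6 in control libraries, with no difference beyond the spread. NEDD4, a ubiquitin ligase that ARRDC3 binds, had 7.38 and 7.12 in treated and 9.40 and 6.0 in control libraries. Another 3 of the 12 arrestin relatives and partners had a site but too few reads to test.

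Of the AHNAK relatives, the annexin ANXA2 had 2.84 and 5.12 scaled RPM in treated and 3.32 and 4.12 in control libraries, with overlapping groups. ZFHX3, the closest relative of ZFHX4 in the list, had 16.5 and 15.9 in treated and 6.08 and 7.5 in control libraries (limma log2 difference 1.15 ± 0.31 SE, adjusted p = 0.0909). Its libraries thus stood in the opposite order to those of ZFHX4, but it did not pass the test. ADNP, another homeodomain zinc finger protein, had 13.3 and 13.9 against 6.64 and 11.2. HIF1AN, an asparaginyl hydroxylase like ASPH in activity, had 16.7 and 19.4 in treated and 14.9 and 18.7 in control libraries.

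Of 5 tested ankyrin repeat genes, ANKRD46 had 6.53 and 6.55 scaled RPM in treated and 10.5 and 17.6 in control libraries (limma log2 difference -0.96 ± 0.35 SE, adjusted p = 0.223). ANKRD11 had 20.4 and 12 in treated and 13.8 and 6.75 in control libraries. ANKRD17, ANKRD50 and ANKRD52 averaged 2.7 to 3.98 in treated and 3.62 to 4.56 in control cells, with overlapping groups for each. No list of relatives held a gene that passed the test in either direction.

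Which genes pass in limma depends on each library. Dropping TGF-beta1 replicate 1 left 11 called genes and dropping TGF-beta1 replicate 2 left 17. Dropping control replicate 1 left 0, with 105 higher and 73 lower before adjustment, and dropping control replicate 2 left 0, with 105 and 68. The log2 difference of each of the 5 genes, which were chosen for being lower, stayed negative in all 16 alternatives tried. Leaving out the variance trend, adding the replicate block and adding joined gene names, of which there were none, could not change it.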

How the data were processed

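The members, gene lists and tests were chosen with earlier results of these data known. The deposited table gives crosslinked and covering reads per site as RPM, scaled by the authors to each library's total reads, per the file headers, and a rounded microRNA abundance score per seed. The offset of each seed match is the deposited distance in nt. Per the submitters' processing notes, bcl2fastq 2.20.0.422, STAR 2.7.1a, bedtools and hg38 were used; gene names are GENCODE 27, per the file headers. The crosslink caller is not given in the sources used here. Another 4 columns of per-sample values name RNA-seq samples and were not used; the other deposited file lists the same 16230 positions.

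All RPM values were whole multiples of 1 read (100% within 0.1 reads), so reads were recovered. Site reads were summed per gene name, filtered (edgeR filterByExpr, minimum count 10), scaled by TMM and tested as log2(scaled RPM + 1) in limma 3.58.1 with a variance trend and Benjamini-Hochberg adjustment; that log scale understates changes of low genes. Alternatives were other scaling, filters and pseudocount, no trend, a replicate block, coverage, 3' UTR sites only, each library left out, and edgeR 4.0.16 and DESeq2 1.42.0 on recovered reads (R 4.3.3, Python 3.11.15). The fit was tested on simulated data. Every site with 20 or more reads is described, as are some with fewer. The 5 nearest profiles are by Euclidean distance. Whether replicates came from separate cultures is not in the labels; p-values reflect only how these libraries vary, possibly for technical reasons.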

Additional observations from a re-analysis of the deposited data

How the results depend on the processing

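The 5 genes, chosen for being lower, kept their direction in all 16 alternatives. Log2 differences (TGF-beta1 minus control) were -2.24 to -1.47 for ARRDC3, -2.03 to -1.35 for AHNAK and -2.07 to -0.97 for ZFHX4. For ASPH they were -2.13 to -1.49 and for ANKRD33B -2.57 to -1.74. The median of the 5 genes, -1.64, became -2.13 without TMM scaling, where the median of all genes lay at -0.45. With read coverage at all sites the median of the 5 genes was -1.87. The cause of these shifts was not tested. The count of 39 called genes became 4 without the filter on low counts, 3 without the variance trend, 25 with coverage at all sites, 84 with coverage where all 4 libraries had a crosslink and 70 with 3' UTR sites only, where 788 genes were tested. Leaving out 1 library gave 0 to 17 genes and 3 to 116 sites. The count of 75 called sites (39 higher, 36 lower) became 28 without TMM scaling (4 higher, 24 lower, median of all sites -0.51), 0 without the filter (limma, 2013 higher and 306 lower unadjusted), 25 without the trend, 47 with DESeq2, 0 with coverage at all sites (limma, 863 and 234 unadjusted) and 202 with coverage where all 4 libraries had a crosslink. Deviations of same-numbered libraries correlated at 0.131 over genes and 0.117 over sites; 2 pairs are too few to read the numbers as a pairing. With the replicate number as a block 57 genes and 117 sites passed. Such a block is balanced over the groups, so the log2 differences of the 5 genes could not change (ARRDC3 -1.73). With coverage in place of crosslinked reads, the 3' UTR share of AHNAK was 79.0% in treated and 84.9% in control cells (64.1% and 74.7% in crosslinked reads), that of ZFHX4 61.9% and 61.6% (40.9% and 32.0%), and that of ARRDC3 in control cells 87.8% (94.4%). Covering reads that span close sites are counted at each of them, which enters these coverage shares. With 2 libraries per group, leaving out 1 only returns the crosslinked share of the other, so it adds no check. The shares of single libraries were 62.5 and 65.7% (AHNAK, treated) and 71.3 and 78.0% (AHNAK, control). For ARRDC3 they were 85.7 and 90.9% (treated) and 94.2 and 94.7% (control). For ZFHX4 they were 34.4 and 47.4% (treated) and 25.9 and 38.1% (control). Depth limits the 22 sites under 20 reads and, among the genes, ANKRD33B, which had the fewest reads.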
